A study of Mus musculus with 2 samples.

Results

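The 60 genes described here encode collagens, basement membrane proteins, proteins of the interstitial matrix, integrins, and the proteases and protease inhibitors that remodel the matrix, the ADAMTS enzymes among them. They were chosen by name, with earlier results of these data known, as 17 collagens, 11 basement membrane genes, 10 interstitial matrix genes, 10 integrins, and 12 proteases and inhibitors. Of the 60, 58 were matched to a probe. On both arrays 55 of them were well above background in the mutant or the wildtype pool, as judged by the scanner software, and are called detected. In all, 25996 of 32909 named genes were detected. RNA of posterior parts of mouse embryos with 13 somites was compared between Cdx2+/-Cdx4-/- mutants, which carry 1 altered copy of Cdx2 and lack Cdx4, and wildtype embryos. For each genotype the tissue of 7 embryos was combined into 1 pool, and the cut was placed relative to the most recently formed somite border. The pools shared a pair of dual-colour oligonucleotide arrays with the dyes exchanged: the mutant pool was in Cy5 and the wildtype pool in Cy3 on replicate 1, and the reverse on replicate 2.

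The labels do not say whether the same extracts were labelled for both arrays, and each genotype was treated as 1 pool. With 1 pool per genotype there was no biological replicate, no test was possible and no p-value is given. Every error is the SD of 2 arrays, which is taken as technical. The labels do not say how the Cdx alleles were made, and effects of Cdx2 and Cdx4 cannot be told apart, because the mutant pool carried both. Median signals over 41174 gene spots lay between 146 and 159 per channel, against 91.3 to 113 at negative control spots. Cdx4 served as the check on the labels. Its probe gave 128 and 179 arbitrary units in the mutant pool, against 780 and 971 in the wildtype pool, on replicates 1 and 2, a 5.75-fold lower signal in the mutant pool (log2 ratio -2.52 ± 0.12, SD of 2 arrays). Cdx2 had a log2 ratio of -0.05 ± 0.09, and where its probe lies relative to the altered allele is not known. Markers of the labelled tissue were present: T, of the primitive streak, tailbud and notochord, and the presomitic genes Tbx6 and Msgn1 were well above background in both pools on both arrays.

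The extracellular matrix is the secreted scaffold in which the posterior embryo elongates. Fibrillar collagens and fibronectin form fibres between mesenchymal cells, while laminins, type IV collagens and nidogens form the basement membranes beneath epithelia, around somites and the neural tube, and along vessels. Integrins are the paired alpha and beta receptors through which cells bind this scaffold, and metalloproteinases of the MMP and ADAMTS families cut it under the restraint of the TIMP inhibitors.

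A gene was counted as higher or lower when its signal differed by at least 1.5-fold (0.58 on the log2 scale) in the same direction on each array. Col2a1, Col26a1 and Postn were higher in the mutant pool by this rule, and Nid1, Adamts15 and Mmp9 were lower. These 6 of 55 detected genes stood against 0.442% of all detected genes that passed the rule in either direction, with 0.212% higher and 0.231% lower. The other 49 did not pass it. Because the 55 genes come from a list chosen with earlier results of these data known, the contrast with all detected genes is not independent support. By sign alone, 20 of the 55 lay above 0 on both arrays and 13 lay below 0 on both, against 23.3% and 24.4% of all detected genes, and 22 had opposite signs on the arrays. The median log2 ratio over the 55 was 0.02, next to 0.00 over all detected genes. Pooled over the 55 genes, the arrays had an SD of 0.22 on the log2 scale, and over all detected genes one of 0.19, so a log2 ratio of that size is within technical error.

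**Figure D1:**
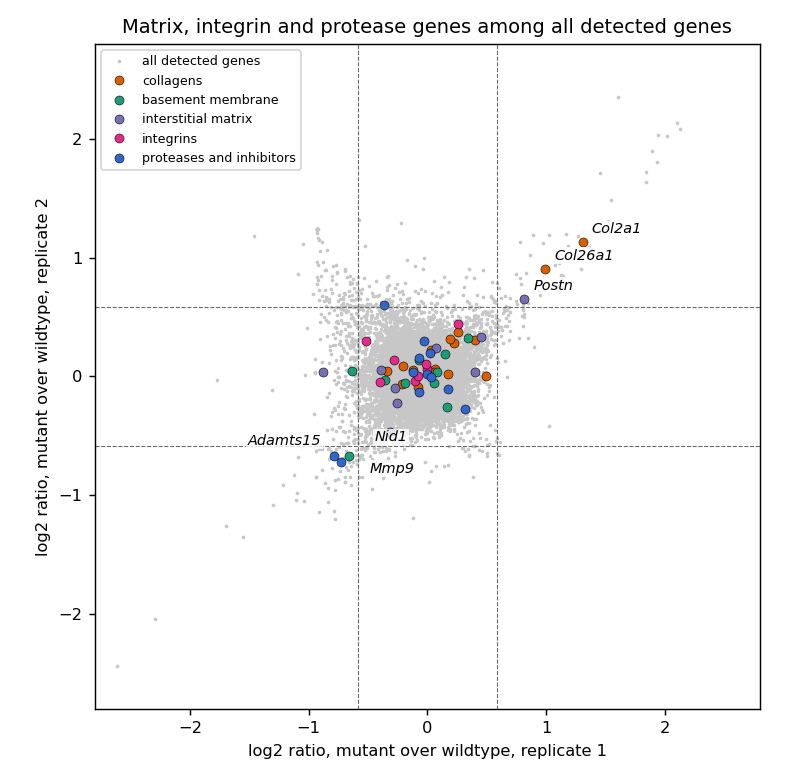
Log2 ratio of mutant over wildtype on replicate 1 (horizontal axis) and replicate 2 (vertical axis) for all 25996 detected genes (grey) and the 55 detected matrix, integrin and protease genes (coloured by class); dashed lines mark 1.5-fold. The 3 genes Col2a1, Col26a1 and Postn lie beyond the lines in the upper right corner, Nid1, Adamts15 and Mmp9 lie beyond them in the lower left, and the other 49 lie short of a line on at least 1 array.

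Among the collagens, Col2a1 had the largest difference. It encodes the fibrillar collagen of cartilage, which in the embryo is also made by the notochord and somites. Its signal was 1329 and 1308 units in the mutant pool, against 537 and 598 units in the wildtype pool. The mutant signals were the higher on both arrays and the ranges of the pools did not overlap. For this and the other genes past the rule, such separation is largely set by the rule and adds no support. For every gene, past the rule or not, each range is 2 technical readings of 1 pool. Overlap was not counted over all detected genes, so a lack of overlap is given as description only. The log2 ratios were 1.31 and 1.13, with a mean of 1.22 ± 0.13 (SD of 2 arrays), or 2.33-fold higher in the mutant pool. The probe lies at chr15:98463171-98463230 in the coordinates of the files, whose genome build neither the headers nor the labels name.

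Col26a1 encodes a collagen with an EMI domain and is listed on the array under its older name Emid2. Its brighter probe (chr5:134327878-134327937 in the files' coordinates) gave 527 and 565 units in the mutant pool, against 265 and 302 units in the wildtype pool. Again the pools did not overlap, and the mean log2 ratio was 0.95 ± 0.06, or 1.93-fold higher in the mutant pool. The other detected probe of Col26a1, at chr5:134188951-134191783, gave log2 ratios of only 0.11 and 0.18, so the difference was seen with 1 of 2 probes. Both probes lay above 0 on both arrays.

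The remaining 14 detected collagens did not pass the rule. Of all 16, Col2a1 and Col26a1 included, 11 lay above 0 on both arrays and 2 lay below 0 on both. Among all detected genes these shares were 23.3% and 24.4%, and the list was chosen with earlier results known. Some of the 11 were barely above 0 on replicate 2, such as Col4a5 at 0.00 and Col4a2 at 0.02. The class had a median log2 ratio of 0.11, with 0.12 on replicate 1 and 0.08 on replicate 2, and ranged from -0.15 to 1.22. Types II, IX and XI assemble together in the fibrils of cartilage, and the 3 genes of these types among the 60 all lay above 0 on both arrays. Further genes of types IX and XI, looked at after these values were seen, were mixed: Col9a2 stood at 0.07 and 0.26, Col11a2 at -0.02 and -0.01, and Col9a3 was not well above background in any channel. Col11a1, the minor fibril-forming partner of type II collagen, gave 219 and 229 units in the mutant pool, against 183 and 177 units in the wildtype pool, a log2 ratio of 0.32 ± 0.08. For Col9a1, which encodes a collagen attached to the surface of those fibrils, the signals were 176 and 152 units in the mutant pool, against 154 and 122 units in the wildtype pool, and the log2 ratio was 0.25 ± 0.09. On each array the mutant signal was the higher for both genes, but the 2 ranges of Col9a1 overlapped between pools. Col13a1, a transmembrane collagen of cell contacts and the neuromuscular junction, had a log2 ratio of 0.36 ± 0.07, and Col5a2, a type V chain that limits the width of type I fibrils, had one of 0.25 ± 0.05.

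The abundant collagens of connective tissue had smaller values. The log2 ratios of Col1a1, Col1a2 and Col3a1, the chains of types I and III, lay between -0.34 and 0.09 on single arrays. For type VI the log2 ratios ran from -0.22 to 0.06 on single arrays for Col6a1 and Col6a2. Of the type IV chains of basement membranes, Col4a1 had log2 ratios of -0.08 and -0.09 and Col4a2 had ratios of 0.18 and 0.02. Col4a1 and Col4a2 are transcribed away from each other from a shared stretch of chromosome 8: their RefSeq promoter windows (250 bases before to 50 after the start, GRCm38.p6) overlap by 78 bases. Col4a5 stood at 0.49 on replicate 1 and 0.00 on replicate 2. Col18a1, whose product yields endostatin, differed little, at 0.06 and 0.03, and Col5a1 gave 0.03 and 0.22. Col12a1 was well above background only in the mutant pool on replicate 1 and was not counted as detected.

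**Figure D2:**
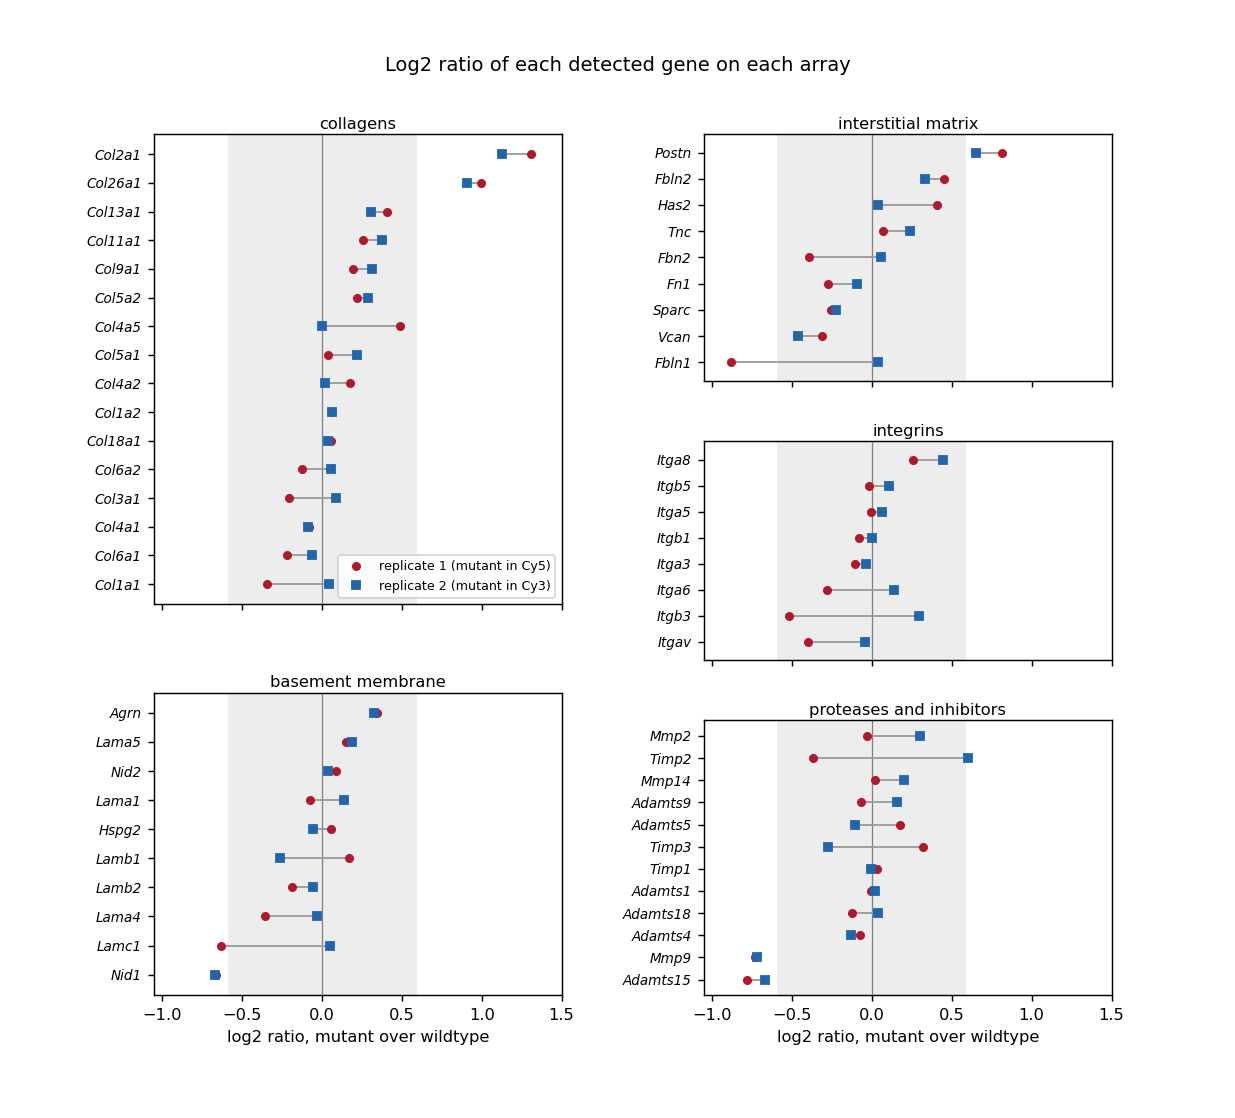
Log2 ratio of mutant over wildtype (horizontal axis) on replicate 1 (circles) and replicate 2 (squares) for each of the 55 detected genes, one row per gene, by class; the grey band spans less than 1.5-fold. Both points lie outside the band on the same side for Col2a1, Col26a1, Postn, Nid1, Adamts15 and Mmp9, while Fbln1, Lamc1 and Timp2 leave it on 1 array and lie near 0 or on the opposite side of 0 on the other.

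Beside the higher Col2a1, Col26a1 and Postn, some markers of several tissues were higher, among them paraxial mesoderm, the tissue of the somites. Of all detected genes 0.212% were higher and 0.231% lower by the rule. The marker lists were chosen with earlier results of these data known, so a contrast with these shares is not independent support. Of 11 paraxial mesoderm markers, 10 were detected, 5 were higher in the mutant pool by the same rule (Dll1, Meox1, Tcf15, Foxc1 and Foxc2) and none was lower. The other 5 detected (Tbx6, Msgn1, Mesp2, Meox2 and Pax3) had mean log2 ratios between -0.12 and 0.06. The summed signal of the 10 was 10396 and 10311 units in the mutant pool, against 7843 and 7713 units in the wildtype pool. This sum includes the 5 higher genes and does not show a rise of the other 5. Pax1, an early gene of the sclerotome, was not well above background in either pool on replicate 1. Of 9 gut endoderm markers, all detected, 3 were higher (Trh by 3.95-fold, Nepn by 3.65-fold and Spink1 by 2.01-fold). The other 6, among them Sox17, Foxa1 and Foxa3, did not pass the rule, with mean log2 ratios between -0.04 and 0.21. The sum over all 9 was 3197 and 3031 units in the mutant pool, against 2331 and 2082 units in the wildtype pool. It includes the 3 higher genes and does not show a rise of the other 6. The neural tube list had 5 of 7 detected, Sox2 past the rule, and a sum, Sox2 included, of 1729 and 1492 units in the mutant pool, against 1288 and 1117 units in the wildtype pool. Its median log2 ratio was 0.37, the value of Sox1, which read 0.04 and 0.70 on replicates 1 and 2. The list medians on single arrays were lower, at 0.08 and 0.28. For paraxial mesoderm the median was 0.37, with 0.36 and 0.43 on single arrays. In surface ectoderm 5 of 7 markers were detected, 0 passed the rule and the median was 0.26, and in lateral plate and allantois all 8 were detected, 0 passed the rule and the median was -0.11. Markers of the notochord, which also makes type II collagen, were not higher as a list: 4 of 6 were detected, 0 of them passed the rule, and their sum was 6173 and 6734 units in the mutant pool, against 8170 and 8636 units in the wildtype pool. That sum was mostly T, at log2 ratios of -0.52 and -0.47, while Foxa2 stood at 0.26 and 0.41. Noto was not analysed here, and Nog was not well above background on replicate 2. Whether the makeup of the dissected tissue has a part in the results for Col2a1, Col26a1 and Postn was not tested, and in pooled tissue fewer cells of a type and less RNA per cell cannot be told apart.

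**Figure D3:**
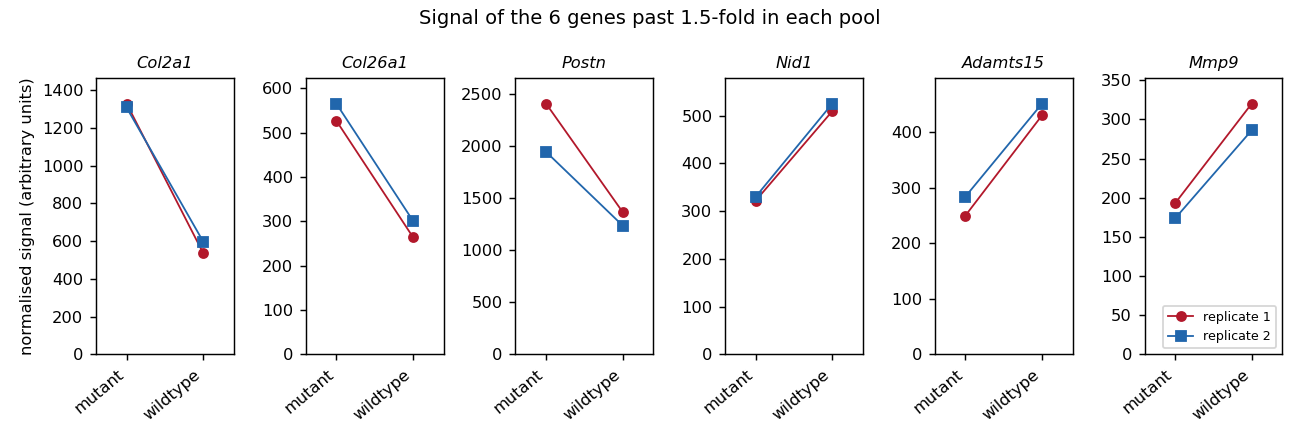
Normalised signal (arbitrary units, vertical axis from 0) of the 6 genes past 1.5-fold in the mutant pool and the wildtype pool; circles and lines show replicate 1, squares replicate 2. In every panel the mutant and wildtype ranges are apart, with Col2a1 at 1329 and 1308 units in the mutant pool and 537 and 598 units in the wildtype pool, and Nid1 at 322 and 330 units in the mutant pool and 510 and 525 units in the wildtype pool. The rule that picked these 6 genes largely sets this separation.

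In the basement membrane class, Nid1 was the 1 gene of 10 detected past the rule. Nidogen 1 is the small glycoprotein that bridges the laminin network and the type IV collagen network. Its single probe (chr13:12837681-12837740 in the files' coordinates) gave 322 and 330 units in the mutant pool, against 510 and 525 units in the wildtype pool. Both mutant signals lay below both wildtype signals. The log2 ratios of -0.66 and -0.67 put Nid1 1.59-fold lower in the mutant pool (mean -0.67 ± 0.01), just past the 1.5-fold line. Nid2, its paralog with overlapping function in basement membranes, had log2 ratios of 0.08 and 0.04 on the same arrays.

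Promoter sequences from the RefSeq table of GRCm38.p6, each running from 250 bases before to 50 after an annotated start, are shown for Nid1 and Postn because they are the genes past the rule that matched an entry; in all, 41 of the 60 genes matched, with 49 windows. CDX proteins bind AT-rich sites with the core TTTAT, which was searched on both strands (on the printed strand the reverse reads ATAAA, and it overlaps the TATA box TATAAA). The core occurs in 40% of the 32851 promoters of the table and in 32.7% of the 49 windows, so a match is common and is given as a description. The Nid1 window, at chr13:13437352-13437651 on the plus strand, holds 0 matches to the core and 1 GC box (GGGCGG on either strand), a motif found in 73.5% of the 49 windows and in 35.7% of all promoters.
Nid1 promoter: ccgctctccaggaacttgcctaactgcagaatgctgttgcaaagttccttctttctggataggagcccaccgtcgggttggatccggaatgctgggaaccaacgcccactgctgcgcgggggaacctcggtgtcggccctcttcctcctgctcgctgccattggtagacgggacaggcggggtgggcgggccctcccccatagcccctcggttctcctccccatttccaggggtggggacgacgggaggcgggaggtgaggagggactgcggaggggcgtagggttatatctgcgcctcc

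The rest of the basement membrane class stayed within 1.5-fold as a mean of both arrays. Without Nid1 the median log2 ratio was 0.00 and the values ranged from -0.29 to 0.33; over all 10 genes the median was -0.02. Agrin (Agrn), the heparan sulfate proteoglycan that gathers acetylcholine receptors at the neuromuscular junction, gave 1071 and 999 units in the mutant pool, against 844 and 797 units in the wildtype pool. These ranges, of 2 technical readings each, did not overlap, which adds no support. The log2 ratio was 0.33 ± 0.01, but a second probe gave 0.22 and -0.10. Perlecan (Hspg2), the other large heparan sulfate proteoglycan of the class, stood at 0.06 and -0.06. Laminin genes as a group had a median log2 ratio of -0.09 over 6 detected chains. Lama5, the alpha chain of many epithelial basement membranes, had a log2 ratio of 0.17 ± 0.02, Lama4, the alpha chain of vessel walls, had -0.19 ± 0.23, and Lamb2 had -0.12 ± 0.09. Lama1 and Lamb1, chains of the earliest embryonic laminin, had opposite signs on the arrays. So did Lamc1, the gamma chain common to most laminins, with log2 ratios of -0.64 and 0.05. Lama2 was not analysed here.

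Periostin (Postn) was the 1 interstitial matrix gene of 9 detected past the rule. Its product is a matricellular protein of mesenchyme, heart valves and periosteum that binds collagen and integrins. The single probe (chr3:54480731-54480790 in the files' coordinates) gave 2406 and 1943 units in the mutant pool, against 1366 and 1236 units in the wildtype pool. Both mutant signals lay above both wildtype signals, and the log2 ratios were 0.82 and 0.65, a mean of 0.73 ± 0.12 or 1.66-fold higher in the mutant pool. Periostin has 2 annotated starts in the promoter table, at chr3:54359017-54359316 and chr3:54360857-54361156, both on the plus strand. Each window holds 1 match to the CDX core, in capitals below. In the second window that match is read on the minus strand and lies within a TATA box, a motif of 13.6% of all promoters.
Postn promoter, first start: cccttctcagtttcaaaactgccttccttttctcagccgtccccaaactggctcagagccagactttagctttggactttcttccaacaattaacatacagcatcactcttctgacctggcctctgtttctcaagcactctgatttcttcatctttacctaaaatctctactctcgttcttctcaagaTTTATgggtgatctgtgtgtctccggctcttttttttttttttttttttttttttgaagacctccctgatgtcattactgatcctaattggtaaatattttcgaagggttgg
Postn promoter, second start: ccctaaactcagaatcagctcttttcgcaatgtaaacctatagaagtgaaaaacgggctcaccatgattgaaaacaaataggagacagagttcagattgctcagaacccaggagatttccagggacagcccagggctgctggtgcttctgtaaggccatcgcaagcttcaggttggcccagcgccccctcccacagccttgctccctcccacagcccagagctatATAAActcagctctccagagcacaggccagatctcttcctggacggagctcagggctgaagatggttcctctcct

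The other interstitial genes lay on both sides of 0, with a class median of -0.17 on the log2 scale (-0.25 for replicate 1, 0.04 for replicate 2). Fibulin 2 (Fbln2), which binds fibronectin, basement membrane proteins and the proteoglycans, gave 483 and 335 units in the mutant pool, against 354 and 266 units in the wildtype pool, with a log2 ratio of 0.39 ± 0.08. Versican (Vcan, listed on the array as Cspg2), the large hyaluronan-binding proteoglycan of embryonic mesenchyme and a substrate of the ADAMTS enzymes, went the other way, with 1552 and 1298 units in the mutant pool, against 1927 and 1792 units in the wildtype pool, and a log2 ratio of -0.39 ± 0.11. The pools overlapped for fibulin 2 and did not overlap for versican, on 2 technical readings each and with overlap not counted over all detected genes. Sparc, a collagen-binding matricellular protein, had a log2 ratio of -0.24 ± 0.02 at 1385 and 1419 units in the mutant pool, against 1653 and 1654 units in the wildtype pool. Fibronectin (Fn1), the fibre on which the presomitic mesoderm and somite borders depend, had a log2 ratio of -0.19 ± 0.13. Has2, the main hyaluronan synthase of the embryo, had one of 0.22 ± 0.26, which its SD exceeds. Tenascin C (Tnc) stood at 0.07 and 0.24 and fibrillin 2 (Fbn2) at -0.39 and 0.06. Fibulin 1 (Fbln1) was the gene whose arrays lay farthest apart in this class, at -0.88 and 0.04. Fibrillin 1 (Fbn1) was not well above background in any channel.

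None of the 8 detected integrins passed the rule. Their median log2 ratio of -0.06 was made up of -0.09 on replicate 1 and 0.08 on replicate 2, and 5 of the 8 had opposite signs on the arrays. Integrin alpha 8 (Itga8), a partner of beta 1 and the nephronectin receptor of the developing kidney, came nearest to the rule. It gave 143 and 162 units in the mutant pool, against 120 and 119 units in the wildtype pool, with a log2 ratio of 0.35 ± 0.13. The pools did not overlap on 2 technical readings each, which adds no support, and the second probe of Itga8 gave 0.22 and 0.01. The gene of that ligand, Npnt, was not well above background in any channel. For the fibronectin receptor, alpha 5 (Itga5) stood at 0.00 and 0.06 and beta 1 (Itgb1), the partner of most alpha chains, at -0.08 and 0.00. Among the other alpha chains, the log2 ratio was -0.07 ± 0.05 for alpha 3 (Itga3), a laminin receptor, and -0.28 and 0.14 for alpha 6 (Itga6). Integrin alpha v (Itgav), of the RGD-binding receptors, had -0.22 ± 0.25, and on replicate 1 the mutant pool did not exceed background by the software's flag. Its beta partners Itgb3 and Itgb5 gave -0.52 and 0.30, and -0.02 and 0.11, so neither kept its sign. Itga4 was not well above background in any channel, and Itga1 was not analysed here.

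Of the 12 proteases and inhibitors, all detected, Adamts15 and Mmp9 were lower in the mutant pool and none was higher. Adamts15 is a secreted metalloproteinase that cuts versican and aggrecan. Its brighter probe (chr9:30902571-30902630 in the files' coordinates) gave 250 and 284 units in the mutant pool, against 430 and 451 units in the wildtype pool. Both mutant signals lay well under both wildtype signals, with log2 ratios of -0.78 and -0.67, a mean of -0.73 ± 0.08 or 1.65-fold lower in the mutant pool. A second probe of Adamts15 gave only -0.02 and -0.12. Mmp9, the gelatinase B gene, gave 193 and 174 units in the mutant pool, against 320 and 286 units in the wildtype pool, from the probe at chr2:165018679-165018738 in the files' coordinates. The pools did not overlap, and the log2 ratios of -0.73 and -0.72 put Mmp9 1.65-fold lower in the mutant pool (mean -0.73 ± 0.01). Its second probe lay below 0 as well, at -0.10 and -0.48.

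No other ADAMTS gene came close to 1.5-fold. Adamts4, an aggrecanase, had a log2 ratio of -0.10 ± 0.04, while Adamts1, Adamts5, Adamts9 and Adamts18 had opposite signs on the arrays and lay between -0.12 and 0.17 on single arrays. Over the 6 ADAMTS genes the median log2 ratio was -0.02. Wildtype Adamts5 was not well above background on replicate 1. Mmp14, the membrane-bound enzyme that activates pro-Mmp2, had a log2 ratio of 0.11 ± 0.13, and Mmp2, the gelatinase A gene, stood at -0.03 and 0.30. For both of these MMP genes the mean was above 0 but smaller than its SD of the arrays, so neither has a settled direction. The inhibitors Timp1, Timp2 and Timp3 all had opposite signs on the arrays. Timp2 was the most discordant of the 55 genes, with 90.2 and 156 units in the mutant pool, against 117 and 103 units in the wildtype pool, or log2 ratios of -0.37 and 0.60.

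More than 1 detected probe was available for 16 of the genes, and for 5 of these (Adamts18, Itga5, Itgb1, Itgb3 and Timp3) the probes differed in the sign of the mean. For Itga5 and Itgb1 this was a matter of values near 0, with second probes at -0.11 and 0.07, and -0.03 and 0.08. The second probe of Adamts18 stood at 0.14 and 0.09 and that of Itgb3 at 0.02 and 0.10. Timp3 was discordant in a larger way: its brighter probe gave 0.32 and -0.28 on replicates 1 and 2, and the other gave -0.84 and 0.57.

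The 3 genes that were lower lay beside lower markers of more than 1 tissue, endothelium among them. Of 8 lateral plate and allantois markers, 4 lay below 0 on both arrays and 1 above. Foxf2 stood at -0.39 and -0.76 and Hand2 at -0.33 and -0.45. In the notochord list T stood at -0.52 and -0.47 and Foxa2 at 0.26 and 0.41. All 14 endothelial markers (among them Kdr, Cdh5 and Pecam1) were detected and lay below 0 on both arrays, 2 of them (Cldn5 and Sox18) passed the rule, and their median log2 ratio was -0.43. Of all detected genes 24.4% lay below 0 on both arrays, 23.3% lay above, 0.231% were lower by the rule and 0.212% higher. The summed signal of the 14 endothelial markers was 9419 and 8796 units in the mutant pool, against 13385 and 12200 units in the wildtype pool. Of 8 primitive blood markers, 7 were detected, 0 passed the rule, 4 lay below 0 on both arrays and 0 above 0 on both, Hbb-bh1 was not analysed here, and the sums were 81135 and 74454 units in the mutant pool, against 79671 and 84289 units in the wildtype pool. The gene with the largest part of these sums was Hbb-y, which was saturated in at least 1 channel, and without it they were 42240 and 39533 units in the mutant pool, against 39921 and 40345 units in the wildtype pool. In parietal and visceral endoderm, extraembryonic layers rich in basement membrane, 7 of 10 markers were detected, Thbd, Pthlh and Apoa4 were not, 1 passed the rule as higher (Fst, also a gene of somites), and the sums were 1338 and 1340 units in the mutant pool, against 971 and 947 units in the wildtype pool. Without Fst these sums were 789 and 817 units in the mutant pool, against 743 and 717 units in the wildtype pool, and the median log2 ratio of the list was 0.03 with Fst. The part of endothelium or of any other tissue in the values of Nid1, Mmp9 and Adamts15 was not tested.

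The wider pathway was read from 182 further genes in 8 lists, of which 153 were detected. Of these, 0 were higher in the mutant pool and 1 was lower, against the same shares of all detected genes as above, and their median log2 ratio was 0.00. The gene that passed was Itga2b, the alpha chain of the platelet fibrinogen receptor and a mark of early blood progenitors. It gave 329 and 320 units in the mutant pool, against 521 and 554 units in the wildtype pool. The pools did not overlap, and the log2 ratio of -0.73 ± 0.09 put it 1.66-fold lower in the mutant pool. Whether the lower endothelial sum or the blood markers have a part in this value was not tested. The other 10 detected integrins of that list did not pass.

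Several further genes came near the line without passing it on both arrays. Lumican (Lum), a small proteoglycan that spaces collagen fibrils, had log2 ratios of 0.80 and 0.56, among 35 detected genes of other glycoproteins and proteoglycans with a median of 0.01. Smoc2, a SPARC-related protein of basement membranes, gave 341 and 294 units in the mutant pool, against 211 and 202 units in the wildtype pool, or log2 ratios of 0.69 and 0.54. Its list, of 11 other basement membrane genes, had a median of 0.09. Of the 11, 8 lay above 0 on both arrays, against 23.3% of all detected genes, in a list chosen with earlier results known. Glypican 3 (Gpc3), a cell-surface heparan sulfate proteoglycan, stood at 0.60 and 0.42 among 13 hyaluronan synthases and receptors, syndecans and glypicans with a median of 0.01. Pcolce, the enhancer of procollagen C-proteinase, was on the lower side at -0.80 and -0.44, while the 19 genes of collagen folding and crosslinking had a median of 0.05. The remaining lists had medians near 0. Over 19 other collagens the median was -0.01, with Col24a1 at 0.50 and 0.12. Of these collagens 6 lay above 0 on both arrays and 5 below 0 on both. Over 32 other proteases and inhibitors the median was -0.03, with Adamtsl2 at -0.23 and -0.46. The 13 integrin adaptors and kinases had a median of -0.06, with kindlin 2 (Fermt2), which activates integrins, at -0.13 and -0.46.

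**Figure D4:**
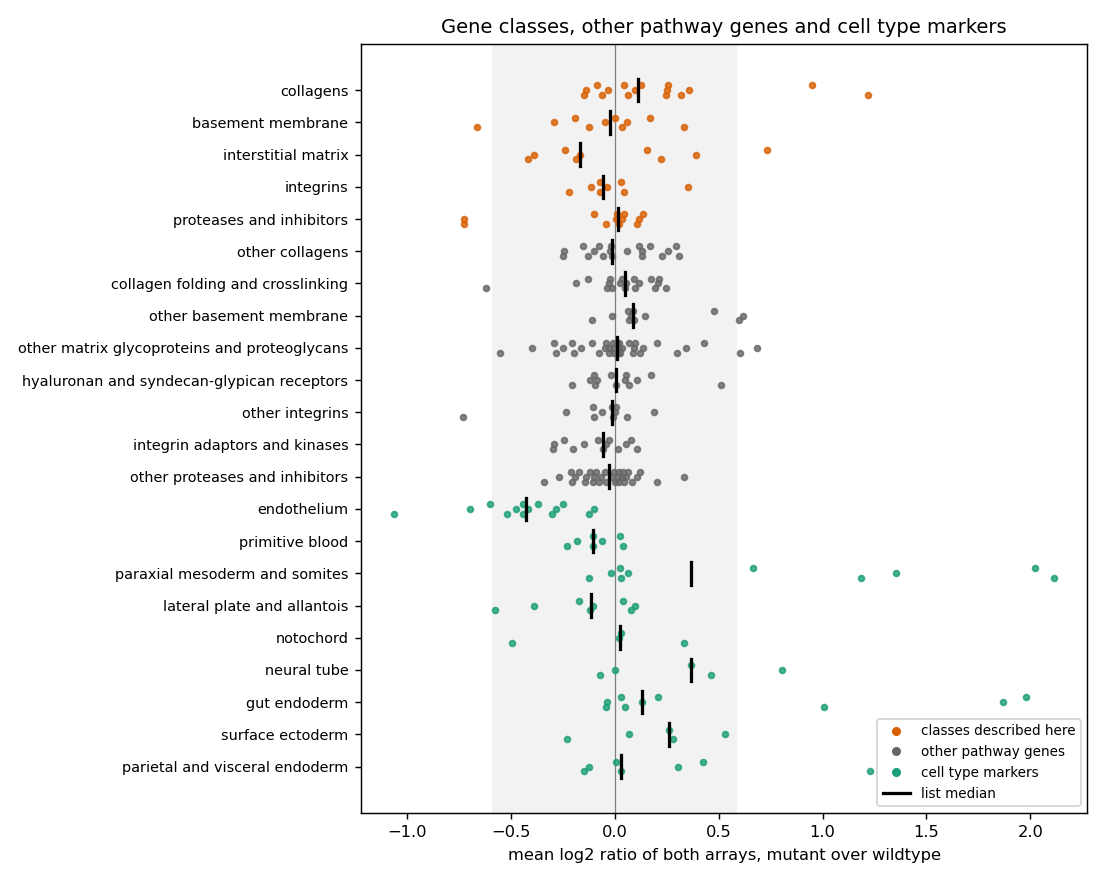
Mean log2 ratio of both arrays, mutant over wildtype (horizontal axis), for each detected gene (points) of the 5 classes described here (orange), the 8 lists of other pathway genes (grey) and the 9 lists of cell type markers (green); black bars are list medians and the grey band spans less than 1.5-fold. Collagens have a median of 0.11, the endothelial markers all lie below 0 with a median of -0.43, and the paraxial mesoderm list has a median of 0.37.

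The 6 genes past the rule were set against the other ways of processing the arrays. Without background subtraction, with a smaller offset of 16, or with a 1.3-fold rule, the same 6 genes passed and no other of the 55. At 2-fold only Col2a1 passed. The scanner software's own ratio added Itga8 to the 6. With the median over all detected probes of a gene, Col26a1, Adamts15 and Mmp9 no longer passed, and Col2a1, Postn and Nid1 did. With median centring of each array in place of loess, 0 of the 55 passed on each array: Postn, for example, then had log2 ratios of 1.31 and 0.01, and Nid1 had -0.28 and -1.18. Under median centring the same 6 genes passed when the mean of both arrays, rather than each array, was held to 1.5-fold, a rule chosen after seeing the data. Fbln1 and Lamc1 would be counted as lower from replicate 1 alone, and Timp2 as higher from replicate 2 alone.

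**Figure D5:**
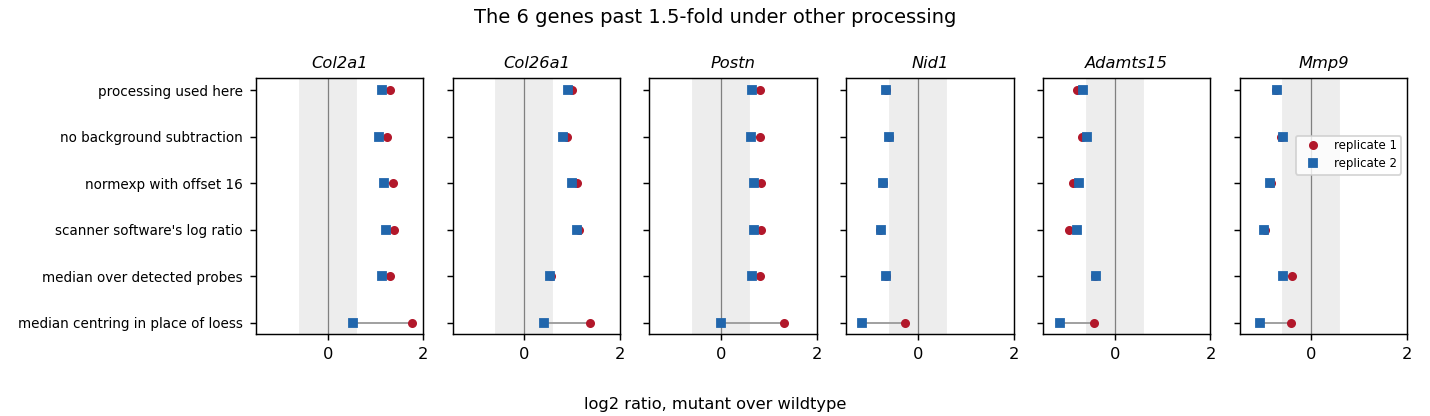
Log2 ratio of mutant over wildtype (horizontal axis) of the 6 genes past 1.5-fold on replicate 1 (circles) and replicate 2 (squares) under each processing (rows); the grey band spans less than 1.5-fold. The arrays lie close together in the first 5 rows and apart under median centring, where Postn is at 1.31 and 0.01 and Nid1 at -0.28 and -1.18.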

How the data were processed

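Posterior tissue of mutant and wildtype embryos was measured on 2 dual-colour arrays in a dye swap, treated as 1 comparison of 1 pool per genotype. Per the file headers, the deposited intensity values are each spot's mean brightness in Cy3 and Cy5 and its median local background, before any correction. The log10 ratio that the authors deposited (Cy5 over Cy3, per the file headers) had been through the scanner software's background and dye steps and served as an alternative. The scanner software was Agilent Feature Extraction, version 9.5.3 per the submitters' processing notes and 7.5.1 per the file headers. The background step matters most for dim genes, whose ratios it can enlarge and an offset reduces.

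Mean signals were background-corrected with normexp (offset 50, fitted on all 43430 spots) in limma 3.58.1 and R 4.3.3, and normalized by loess within each array, where control spots had weight 0. The labelled dyes gave the direction, mutant over wildtype. On replicate 1, 205 non-uniform spots were left out, and 90 on replicate 2; saturated spots stayed, and no spot of the 60 genes was saturated. Spots were averaged to 41013 probes, and the brightest detected probe stood for a gene. Signals per pool are channel values after loess and Aquantile normalization, in arbitrary units, and include the offset. Tables were built in Python 3.11.15 with pandas 2.3.3. Between 77.4% and 82.5% of gene spots were well above background per channel, and the number of arrays limits the precision.

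Names were updated through accessions, symbols and same-chromosome synonyms in a RefSeq table of GRCm38.p6: 19791 probes matched by accession, 3636 by symbol and 2974 by synonym, 201 matched several genes and got no name, and 14411 kept the files' name. The 75 probes of the 60 genes matched by accession (63), symbol (10) or synonym (2).

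The genes, their classes, the further lists and the rules were chosen with earlier results of these data known. Genes given with values were those past the size rule; in each class the 6 of largest absolute mean ratio with the same sign on both arrays; those not detected or without a probe; those whose probes disagreed in sign; and in each further list those past the rule or the 1 largest. Other genes of the 60 named singly, such as Fbln1, Lamc1 and Timp2, were picked after their values were seen. Median centring, no background subtraction, an offset of 16, the software's ratio, the median over probes, no detection filter, 1.3-fold and 2-fold rules and each array alone were tried; a rule on the mean of both arrays was added after seeing the data. The correction and normalization were also run on simulated arrays with set fold changes. That run checks the code and does not test the genes counted here.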

Additional observations from a re-analysis of the deposited data

How the results depend on the processing

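The 6 genes past the rule kept their sign under every alternative run, but for several alternatives the sign could not have changed. Each array alone, no detection filter and the 1.3-fold and 2-fold rules use the same values, which the rule had already put on 1 side. For Col2a1, Postn and Nid1, with a single probe each, the median over probes also changes nothing. The count of genes higher was 3 and lower 3. With median centring in place of loess, 0 were higher and 0 lower, and of all detected genes 27 were higher and 16 lower (62.8% of those counted were higher, against 47.8% with loess). The cause was not tested. At 2-fold 1 was higher and 0 lower, which the stricter rule sets. With the median over detected probes 2 were higher and 1 lower. With each array alone 3 to 4 were higher and 3 to 5 lower. Among all detected genes 55 were higher and 60 lower in the main processing; the counts were 80 and 91 with the offset of 16, 43 and 38 without background subtraction, 167 and 189 by the software's ratio, 140 and 195 at 1.3-fold, 20 and 7 at 2-fold, 257 and 126 from replicate 2 alone and 93 and 378 from replicate 1 alone.

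The collagens' median log2 ratio was 0.077 with median centring and 0.17 by the software's ratio. The basement membrane median was -0.11 with median centring and -0.062 with the median over probes, and the protease median of 0.02 was -0.02 with median centring. With each array alone the medians ran from 0.075 to 0.12 for collagens, -0.0079 to 0.0034 for basement membrane, -0.25 to 0.04 for interstitial matrix, -0.094 to 0.084 for integrins, and -0.048 to 0.0041 for proteases and inhibitors; the basement membrane, interstitial, integrin and protease medians thus differ in sign between arrays and have no settled direction. Of 440 values of single genes under the alternatives, 386 stayed within 1 SD of the arrays and 54 moved further. Many of the 386 could not have moved. A single array always lies within 1 SD of the mean of both arrays. Leaving out the detection filter did not change the values of detected genes. The median over probes cannot change a gene with a single detected probe. The count is therefore no measure of how stable the values are. Over all alternatives, including each array alone, the mean log2 ratio ran from 1.13 to 1.31 for Col2a1, 0.55 to 1.12 for Col26a1, 0.65 to 0.82 for Postn, -0.78 to -0.60 for Nid1, -0.87 to -0.40 for Adamts15 and -0.98 to -0.51 for Mmp9.

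No paired analysis was possible because each genotype was treated as 1 pool and no test was made. Signal over background limits dim genes: Col12a1, Fbn1 and Itga4 have no usable ratio, and the offset pulls ratios near background towards 0.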
